A study of Mus musculus with 9 samples.

Results

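The genes described here are 9 mouse genes whose products promote or restrain the growth of blood vessels, measured in the periocular neural crest (pNC) and in the embryonic cornea that forms from it. They are the vascular endothelial growth factor (VEGF) ligands *Vegfa*, *Vegfb*, *Vegfc* and *Pgf*, the VEGF receptor gene *Flt1*, the angiopoietins *Angpt1* and *Angpt2*, and the inhibitors *Serpinf1* and *Vash1*. They were chosen by name, for what they are known to do, but with earlier results of these data known. The set makes up 9 of the 19369 genes listed in the series. All 9 passed the filter on low counts, and 8 of them were listed in every sample.

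The tissue came from wild-type C57BL/6 embryos with no treatment given. There were 3 stages with 3 pools of tissue each, namely E10.5 pNC, E14.5 cornea and E16.5 cornea. A pool held tissue of 26 eyes at E10.5, 18 corneas at E14.5 or 12 corneas at E16.5, so the values are averages over embryos. The pNC was separated with dispase from the surface ectoderm, lens vesicle and optic cup, whereas the corneas were taken with their epithelium, and tissue makeup therefore changes along with stage.

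The cornea stays transparent and free of blood vessels, while the mesenchyme from which it forms is vascular. VEGF-A binds the receptors encoded by *Kdr* and *Flt1* on endothelial cells and drives vessel growth. The product of *Flt1* holds VEGF-A tightly but signals weakly, and a soluble form of it acts as a trap that is known for keeping vessels out of the adult cornea. Angiopoietin 1 activates the endothelial receptor Tek and steadies vessels, and angiopoietin 2 mostly opposes it. *Serpinf1* encodes pigment epithelium-derived factor (PEDF), a secreted inhibitor of vessel growth, and *Vash1* encodes vasohibin 1, an inhibitor made by endothelial cells among others that also removes the terminal tyrosine from tubulin.

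Levels are given in FPKM (fragments counted for a gene, scaled to its transcript length and to the mapped fragments of the sample), and changes as log2 fold changes from edgeR's quasi-likelihood test on expected counts. A gene was called where the adjusted p was under 0.05 and the change at least 2-fold. Libraries were of like depth, with totals from 8745161 to 9069023 expected counts. Tissue labels were checked against marker genes: summed FPKM of 8 corneal epithelial genes was 33.2 to 44.5 at E10.5, 659 to 2134 at E14.5, then 5270 to 7623 at E16.5. The highest E14.5 value was that of replicate 1, against 659 and 782 in the other pools. The same pool was lowest of its stage in vascular endothelial genes, and its level of *Vegfa*, *Vegfb*, *Pgf*, *Flt1*, *Angpt1* and *Vash1* was the nearest of the E14.5 pools to the E16.5 mean. Log2 fold changes that involve E14.5 are therefore also given without it.

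*Serpinf1* rose and *Vash1*, *Vegfc*, *Pgf*, *Flt1* and *Angpt1* fell between pNC and the E16.5 cornea, while *Vegfa* was 1.91-fold higher, short of the 2-fold minimum used here. Against E10.5, 0 genes of the 9 were called higher and 3 lower at E14.5, where 13.6% and 7.97% of all genes tested were called higher and lower. At E16.5 against E10.5, 1 was called higher and 5 lower, with 19.4% and 15.4% of all genes so called. At E16.5 against E14.5, 1 was called higher and 3 lower, with 6.26% and 5.47% of all genes so called. The median log2 fold change of the 9 genes was -0.48, -1.63 and -0.72 in these comparisons, and that of all 14771 genes tested was 0.01, 0.00 and -0.02. The 3 comparisons share samples, so their counts are not independent of each other. At the adjusted p alone, with no fold minimum, *Vegfa* and *Serpinf1* were higher in all 3 comparisons, so that 2 members were higher each time and 5, 6 and 3 were lower, where 28.9%, 35.2% and 17.5% of all genes were higher and 27.5%, 34.7% and 17.5% lower. DESeq2 and limma also called 0 members higher at E14.5 against E10.5. By the criterion of NOISeq, which sets a change against the differences between replicates, 0, 1 and 1 members were higher and 2, 4 and 1 lower, with 4.94%, 8.91% and 2.02% of all genes higher and 2.81%, 10.1% and 2.12% lower. Without E14.5 replicate 1, the genes called lower by edgeR numbered 2 at E14.5 against E10.5 and 4 at E16.5 against E14.5.

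**Figure D1:**
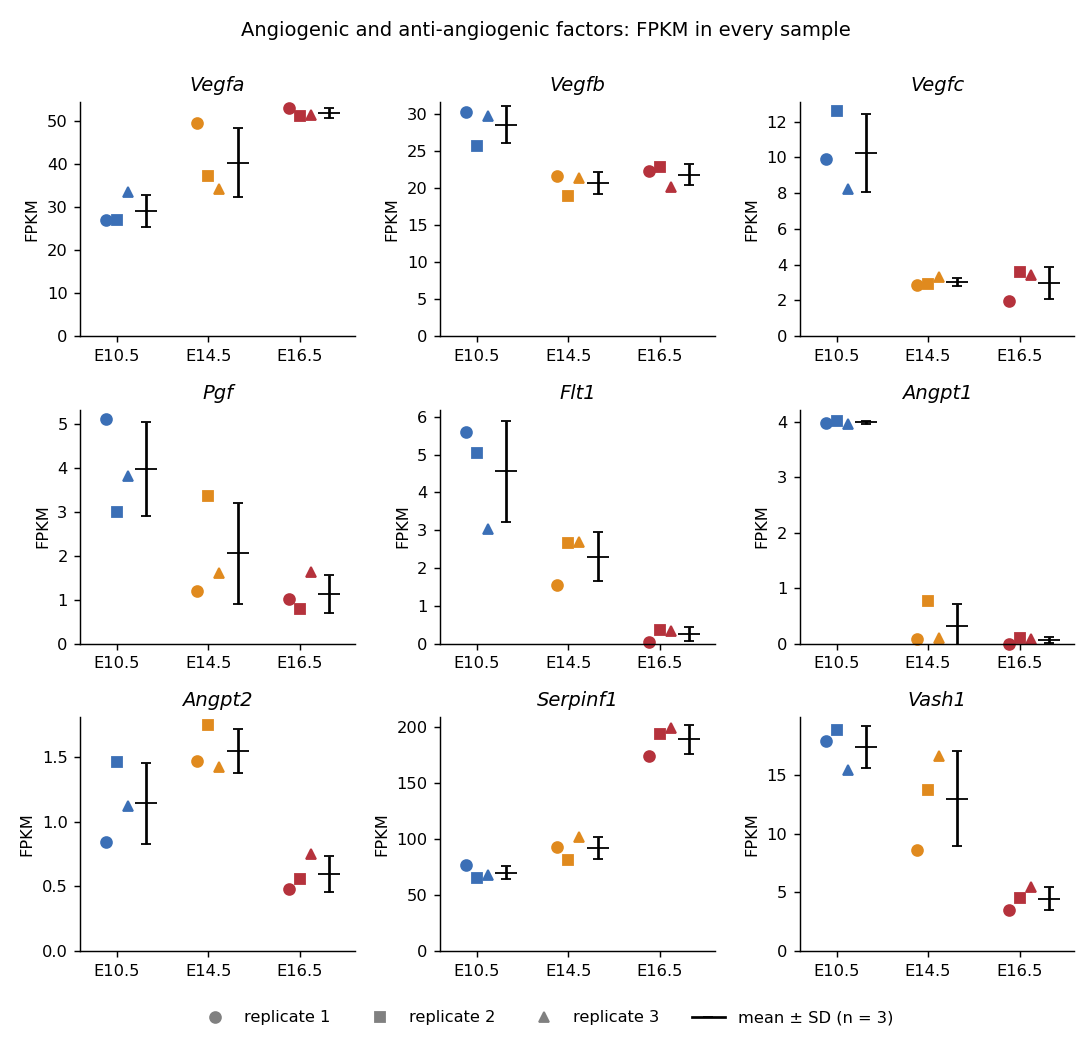
FPKM of each of the 9 genes (linear axes from 0) in the 3 pools of each stage, with a symbol for each replicate and the mean ± SD beside them. *Serpinf1* at 174 to 199 FPKM and *Vegfa* at 51.3 to 53.2 FPKM were highest at E16.5, where *Flt1* and *Angpt1* were below 0.4 FPKM in every pool.

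*Serpinf1* (Entrez Gene 20317, GRCm38 chromosome 11, 75410029 to 75422623) was the most abundant of the 9 genes per transcript length at every stage. Its FPKM was 76.6, 65.7 and 67.9 in the E10.5 pools, 92.8, 81.7 and 102 at E14.5, then 174, 193 and 199 at E16.5. The 3 stages did not overlap. The mean rose from 70.0 ± 5.78 (SD, n = 3) to 92.1 ± 10.1 (SD, n = 3) and 189 ± 12.9 (SD, n = 3). At E16.5 it was 2.99-fold higher than at E10.5, a log2 fold change of 1.58 with a standard error (SE) of 0.11 (edgeR adjusted p = 6.8e-07). It was 2.29-fold higher than at E14.5, with a log2 fold change of 1.20 (SE 0.11, edgeR adjusted p = 0.00024), and 1.19 without E14.5 replicate 1. The first step was smaller, with 0.38 on the log2 scale (SE 0.11, edgeR adjusted p = 0.013), or 0.39 without that pool, and was not called. At E16.5, 98.6% of listed genes had a lower mean FPKM than *Serpinf1*.

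PEDF is named for the pigment epithelium, and markers of that tissue were measured beside it. The summed FPKM of 7 pigment cell genes was 48.0 to 54.5 at E10.5, 60.0 to 109 at E14.5, then 28.9 to 30.9 at E16.5, so it was lowest where *Serpinf1* was highest. Within the list, *Rpe65*, a gene of the mature pigment epithelium, was at 0 in all E10.5 and E16.5 pools, but other genes were present. *Tyr* was at 16.8 ± 2.37 FPKM at E10.5 and 12.9 ± 1.19 at E16.5, and *Pmel* at 22.9 ± 4.09 and 9.67 ± 0.431 (SD, n = 3 each). The part of pigment cells in the level of *Serpinf1* was not tested. The summed FPKM of 6 corneal stroma genes rose along with *Serpinf1*, from 195 to 314 at E10.5 to 2959 to 7022 at E14.5, then 11854 to 15127 at E16.5, and the part of stromal content in the rise was not tested. By in situ hybridization, the authors saw *Serpinf1* (as *Pedf*) widely at all 3 stages. At E16.5 they saw strong signal in the posterior corneal stroma and the corneal endothelium. In bulk tissue, fewer cells of a type and less RNA per cell cannot be told apart.

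The stretch of 250 bases upstream of a gene's start was searched on both strands for 4 short motifs, since they are common in oxygen-regulated, housekeeping and endothelial promoters. Sequences are from RefSeq (GRCm38.p6), and 7 of the 9 genes had one. The motifs were the core of the hypoxia response element, ACGTG, found in 16.6% of 27025 such promoters, the GC box GGGCGG in 32.9%, the TATA box TATAAA in 13.0% and the ETS core AGGAAG in 29.2%. The promoters of *Serpinf1*, *Vegfa*, *Vegfc* and *Flt1*, to which the results keep returning, are shown 5′ to 3′ on the strand of the gene, with motif matches in capitals. *Vegfa* has 2 starts in the reference, of which the more upstream one is shown. The *Flt1* window precedes the start that the promoter table gives, which lies inside the outer limit of the gene given below.
Serpinf1, chr11:75422624-75422873, minus strand: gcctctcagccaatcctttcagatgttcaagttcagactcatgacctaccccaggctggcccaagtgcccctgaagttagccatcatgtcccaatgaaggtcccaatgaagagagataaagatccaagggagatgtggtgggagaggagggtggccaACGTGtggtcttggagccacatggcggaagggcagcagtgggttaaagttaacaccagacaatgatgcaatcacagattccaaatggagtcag
Vegfa, chr17:46032378-46032627, minus strand: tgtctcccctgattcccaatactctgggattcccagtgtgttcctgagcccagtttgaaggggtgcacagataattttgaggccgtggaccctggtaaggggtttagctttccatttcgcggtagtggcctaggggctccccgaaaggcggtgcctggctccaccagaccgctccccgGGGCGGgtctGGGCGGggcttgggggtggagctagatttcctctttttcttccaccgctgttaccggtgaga
Vegfc, chr8:54077282-54077531, plus strand: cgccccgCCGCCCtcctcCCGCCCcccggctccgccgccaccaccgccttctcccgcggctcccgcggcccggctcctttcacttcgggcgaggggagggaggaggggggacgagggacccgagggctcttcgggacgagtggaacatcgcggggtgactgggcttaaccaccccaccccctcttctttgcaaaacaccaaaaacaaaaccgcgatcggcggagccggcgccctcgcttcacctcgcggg
Flt1, chr5:147726012-147726261, minus strand: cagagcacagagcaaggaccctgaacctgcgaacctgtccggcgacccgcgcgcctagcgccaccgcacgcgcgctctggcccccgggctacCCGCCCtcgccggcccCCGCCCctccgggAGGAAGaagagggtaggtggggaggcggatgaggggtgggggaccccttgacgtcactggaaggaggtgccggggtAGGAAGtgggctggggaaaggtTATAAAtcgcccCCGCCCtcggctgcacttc
The *Serpinf1* window held 1 ACGTG and no GC box, and 51.6% of its bases were G or C. The *Vegfa* and *Vegfc* windows each held 2 GC boxes and none of the other motifs, with 59.2% and 71.6% G or C. The window of the second *Vegfa* start, not printed, lies inside the gene, at 46025164 to 46025413, so transcripts from the first start run through it. It held 1 match to the hypoxia response element core letters, as CACGT, and 1 GC box, and these matches may fall in an exon. The *Flt1* window held 3 GC boxes, 1 TATA box and 2 ETS cores, with 70.4% G or C. A match is a string of letters and not a measured binding site, and a missing match says only that the letters are absent from this window.

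*Vegfa* (Entrez Gene 22339, chromosome 17, 46016993 to 46032377) was the second most abundant of the 9 genes, although its E10.5 pools overlapped with those of *Vegfb*. Its FPKM was 27.0, 27.0 and 33.5 at E10.5, 49.6, 37.2 and 34.3 at E14.5, then 53.2, 51.3 and 51.4 at E16.5. No pool of a later stage was as low as any pool of an earlier one, and E14.5 replicate 1 was close to the E16.5 pools. The mean was 29.1 ± 3.74 (SD, n = 3), 40.4 ± 8.09 (SD, n = 3) and 51.9 ± 1.06 (SD, n = 3). The log2 fold change at E16.5 against E10.5 was 0.93 (SE 0.12, edgeR adjusted p = 5.3e-05). This is 1.91-fold and short of the 2-fold minimum, which it passed at 1.03 (edgeR adjusted p = 0.000107) when E10.5 replicate 3 was left out. The steps were 0.43 (SE 0.12, edgeR adjusted p = 0.0127) to E14.5 and 0.50 (SE 0.12, edgeR adjusted p = 0.00979) from E14.5 to E16.5, or 0.28 and 0.65 without E14.5 replicate 1. The estimated counts of *Vegfa* were not whole in 8 of the 9 samples, so some of its reads may have been shared with other features.

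*Vegfa* is made as several splice forms that differ in how firmly they bind to matrix, and 6 of its 10 curated transcripts were quantified in the files. The length that RSEM assigned to the gene, a mean weighted by the estimated share of each transcript, was 3340, 3265 and 3242 bases at E10.5, 3170, 3245 and 3275 at E14.5, then 3160, 3189 and 3161 at E16.5. The mean was 3282.5 ± 51.0 (SD, n = 3) bases in the pNC and 3170.1 ± 16.6 (SD, n = 3) in the E16.5 cornea, with no overlap of these stages. With 3 pools against 3, the exact permutation test (two-sided) gave p = 0.1, the smallest it can give, and this length was looked at after the values were seen. E14.5 replicate 1 was again beside the E16.5 pools, and which forms changed was not resolved.

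Within each sample, *Vegfa* was set against *Serpinf1*. The FPKM ratio was 0.419 ± 0.0708 (SD, n = 3) at E10.5, 0.442 ± 0.0995 (SD, n = 3) at E14.5, then 0.276 ± 0.0252 (SD, n = 3) at E16.5. Every E16.5 pool, at 0.258 to 0.305, was below every pool of the earlier stages, at 0.337 to 0.534. Both genes had higher means at E16.5, with the larger increase in *Serpinf1*.

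**Figure D2:**
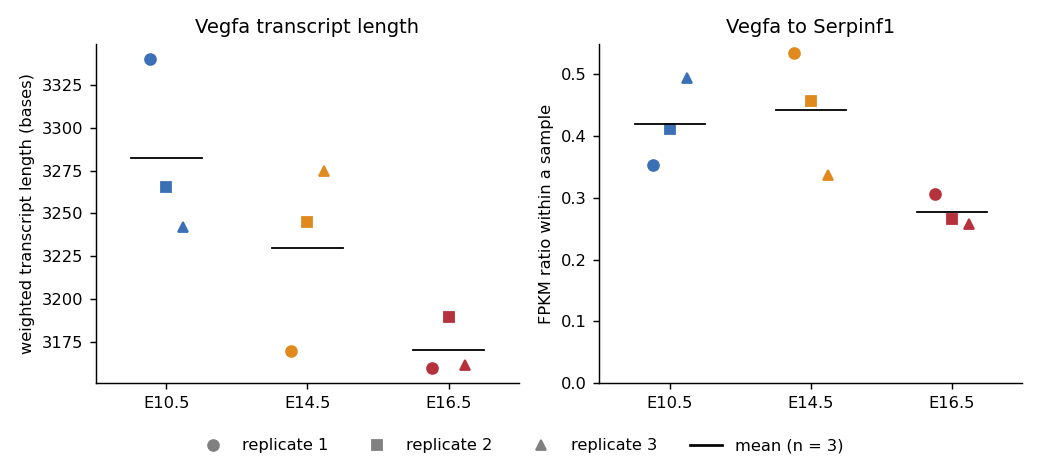
Left, the weighted transcript length of *Vegfa* in bases (the axis does not start at 0), and right, the FPKM ratio of *Vegfa* to *Serpinf1* within a sample, for the 3 pools of each stage with the mean as a line. E14.5 replicate 1 lies with the E16.5 pools in length, and the ratio is lowest in the 3 E16.5 pools.

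*Vegfb* (Entrez Gene 22340, chromosome 19, 6982472 to 6987651) encodes a ligand of the *Flt1* product that has little power to start vessel growth. Its FPKM was 30.3, 25.7 and 29.7 at E10.5, 21.6, 19.0 and 21.3 at E14.5, then 22.3, 22.8 and 20.1 at E16.5. The E10.5 pools were above all the others, and the later stages overlapped. The means were 28.5 ± 2.48, 20.6 ± 1.46 and 21.8 ± 1.42 (SD, n = 3 each). The log2 fold change to E14.5 was -0.48 (SE 0.11, edgeR adjusted p = 0.00291), short of 2-fold, and -0.50 without E14.5 replicate 1. From E14.5 to E16.5 it was 0.23 (SE 0.11, edgeR adjusted p = 0.116), or 0.26 without that pool. That at E16.5 against E10.5 was -0.25 (SE 0.11, edgeR adjusted p = 0.0575), and -0.40 (edgeR adjusted p = 0.00488) with library totals in place of TMM scaling.

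*Vegfc* (Entrez Gene 22341, chromosome 8, 54077532 to 54186454) encodes the main growth factor of lymphatic vessels, which acts through the receptor encoded by *Flt4*. Its FPKM was 9.91, 12.6 and 8.22 at E10.5, 2.86, 2.91 and 3.29 at E14.5, then 1.95, 3.56 and 3.43 at E16.5. The pNC stood apart from both corneal stages, which overlapped. The mean fell from 10.2 ± 2.20 (SD, n = 3) to 3.02 ± 0.235 (SD, n = 3) and stayed at 2.98 ± 0.894 (SD, n = 3). Both falls were called, at -1.77 (SE 0.24, edgeR adjusted p = 0.00012) to E14.5, or -1.73 without E14.5 replicate 1, and -1.63 (SE 0.24, edgeR adjusted p = 0.00011) to E16.5. Between the corneal stages the log2 fold change was 0.15 with a 95% interval from -0.42 to 0.71 (edgeR adjusted p = 0.694), and its sign depended on the scaling, at -0.02 with library totals and 0.10 without E14.5 replicate 1.

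*Pgf* (Entrez Gene 18654, chromosome 12, 85166637 to 85177785) encodes placental growth factor, a ligand of the *Flt1* product alone among the VEGF receptor tyrosine kinases. It was scarce, with 11 to 71 counts in a sample. Its FPKM was 5.10, 2.98 and 3.81 at E10.5, 1.19, 3.36 and 1.60 at E14.5, then 1.01, 0.78 and 1.62 at E16.5. The pNC was above the E16.5 cornea in every pool, but E14.5 replicate 2 lay within the E10.5 range. The means were 3.96 ± 1.07, 2.05 ± 1.15 and 1.14 ± 0.434 (SD, n = 3 each). The fall to E16.5 was called at -1.74 (SE 0.41, edgeR adjusted p = 0.00289). The call at E14.5 against E10.5, -1.02 (SE 0.38, edgeR adjusted p = 0.04), was lost in 6 of 9 fits that left out 1 pool, among them -0.73 (edgeR adjusted p = 0.0972) without E14.5 replicate 1, -0.79 (edgeR adjusted p = 0.152) without E10.5 replicate 1 and -0.88 (edgeR adjusted p = 0.114) without E14.5 replicate 3. The others were -1.09 (edgeR adjusted p = 0.0627) without E10.5 replicate 3 and -1.02 without E16.5 replicate 1 or 2 (edgeR adjusted p = 0.0518 and 0.052). Between the corneal stages it was -0.72 (SE 0.44, edgeR adjusted p = 0.223), or -1.01 (edgeR adjusted p = 0.0604) without E14.5 replicate 1.

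*Flt1* (Entrez Gene 14254, chromosome 5, 147561604 to 147726438) was lower at each later stage and close to 0 in the E16.5 cornea. Its FPKM was 5.59, 5.04 and 3.04 at E10.5, 1.56, 2.67 and 2.68 at E14.5, then 0.04, 0.37 and 0.34 at E16.5. The stages did not overlap, and the E16.5 values rest on 2, 21 and 19 counts. The mean was 4.56 ± 1.34 (SD, n = 3), 2.30 ± 0.644 (SD, n = 3) and 0.25 ± 0.182 (SD, n = 3). At E16.5 *Flt1* was 16.3-fold lower than at E10.5, a log2 fold change of -4.03 (SE 0.47, edgeR adjusted p = 2e-05), and 8.18-fold lower than at E14.5, at -3.03 (SE 0.48, edgeR adjusted p = 0.00137), or -3.25 without E14.5 replicate 1. The first step was -0.99 (SE 0.36, edgeR adjusted p = 0.0365), just short of 2-fold, -0.77 (edgeR adjusted p = 0.0529) without E14.5 replicate 1 and -1.22 (edgeR adjusted p = 0.0206), a call, without E10.5 replicate 3. It was also called at -1.10 (edgeR adjusted p = 0.0482) and -1.14 (edgeR adjusted p = 0.0442) without E14.5 replicate 2 or 3. Only 1 of 2 curated *Flt1* transcripts was quantified, so the membrane form and the soluble trap cannot be told apart in these values.

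The fall of *Flt1* went along with that of vascular endothelial genes. Of 14 such markers, 12 were called lower in all 3 comparisons, where 7.97% (E14.5 against E10.5), 15.4% (E16.5 against E10.5) and 5.47% (E16.5 against E14.5) of all genes were called lower. The summed FPKM of the 14 was 233 to 367 at E10.5, 99.1 to 156 at E14.5, then 36.6 to 58.5 at E16.5. *Pecam1* and *Cdh5*, which encode adhesion molecules of the endothelium, were detected in every pool. The ratio of *Flt1* to *Cdh5* FPKM was 0.144 ± 0.00596 (SD, n = 3) at E10.5, 0.173 ± 0.0150 (SD, n = 3) at E14.5, then 0.200 and 0.218 in E16.5 replicates 2 and 3. That to *Pecam1* was 0.208 ± 0.0279 and 0.248 ± 0.0148 (SD, n = 3 each), then 0.274 and 0.420 in the same E16.5 pools. E16.5 replicate 1, with 2 *Flt1* counts, was left out of the ratios. In that pool they were 0.235 to *Cdh5* and 0.125 to *Pecam1*. The ratios to these 2 markers moved far less than *Flt1* itself. Other markers of the 14 fell by more or by less. At E16.5 against E10.5 the log2 fold change was -5.59 for *Tek* and -4.05 for *Tie1*, against -4.03 for *Flt1*. *Egfl7* went only from 41.5 ± 5.09 to 5.83 ± 0.87 FPKM (SD, n = 3 each). The part of endothelial content in the fall of *Flt1* was not tested.

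*Kdr*, which encodes the main signalling receptor of VEGF-A, and *Eng*, which encodes endoglin, were the 2 markers of the 14 not called in any comparison. *Eng* was at 16.4 ± 4.99, 11.8 ± 0.487 and 9.19 ± 1.72 FPKM (SD, n = 3 each). *Kdr* FPKM was 32.5, 29.5 and 18.3 at E10.5, 21.8, 30.3 and 38.9 at E14.5, then 21.7, 29.3 and 27.5 at E16.5, and the stages overlapped. The means were 26.8 ± 7.49, 30.3 ± 8.58 and 26.2 ± 3.96 (SD, n = 3 each). Its log2 fold change at E16.5 against E10.5 was 0.12 with a 95% interval from -0.42 to 0.65 (edgeR adjusted p = 0.684). The ratio of *Flt1* to *Kdr* FPKM accordingly fell from 0.170 ± 0.00302 (SD, n = 3) to 0.0762 ± 0.0104 (SD, n = 3), and was 0.0126 and 0.0124 in E16.5 replicates 2 and 3. *Vegfa* FPKM was 4.83 to 11.0 times that of *Flt1* at E10.5 and 12.8 to 31.8 times at E14.5. At E16.5 it was 139 and 151 times in replicates 2 and 3.

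**Figure D3:**
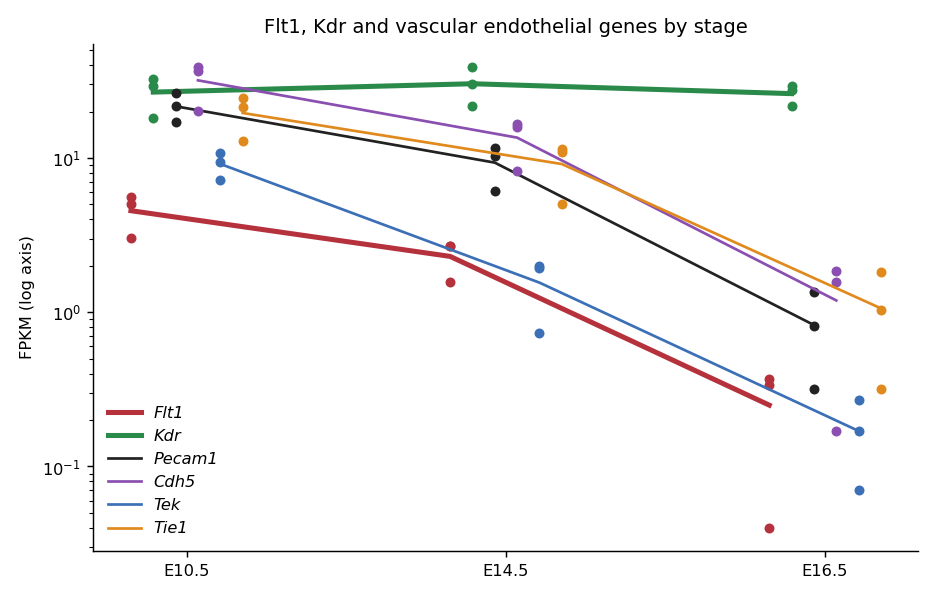
FPKM (log axis) of *Flt1*, *Kdr* and 4 further genes of vascular endothelium at the 3 stages, with a point for each pool and lines through the means. *Flt1* falls with *Pecam1*, *Cdh5*, *Tek* and *Tie1*, while *Kdr* stays between 18.3 and 38.9 FPKM.

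*Angpt1* (Entrez Gene 11600, chromosome 15, 42424667 to 42676977) fell the most of the 9 genes. Its FPKM was 3.98, 4.02 and 3.97 at E10.5, and 0.08, 0.77 and 0.11 at E14.5. At E16.5 it was 0.11 and 0.08 in replicates 2 and 3, and was not listed in replicate 1, which was taken as 0. The E10.5 pools agreed closely and stood apart from the cornea, where the stages overlapped. Summed over 3 pools there were 441 counts at E10.5, 35 at E14.5, then 7 at E16.5. The log2 fold change was -3.64 (SE 0.55, edgeR adjusted p = 0.00026) to E14.5 and -5.74 (SE 0.71, edgeR adjusted p = 3.1e-05) to E16.5. The ratio of summed counts, scaled to library size, was 12.5 (95% counting interval 8.88 to 18.2) for E10.5 over E14.5 and 55.9 (26.9 to 140) for E10.5 over E16.5, intervals that cover counting error only. Of the 35 counts at E14.5, 28 came from replicate 2, and the log2 fold change to E14.5 was -5.32 without it. That to E16.5 ran from -6.34 to -5.17 with 1 pool left out. Without E14.5 replicate 1 that to E14.5 was -3.18. Between the corneal stages the log2 fold change was -2.10 (SE 0.96, edgeR adjusted p = 0.114) and was not called. It was -0.41 (edgeR adjusted p = 0.738) without E14.5 replicate 2, -1.53 (edgeR adjusted p = 0.274) without E16.5 replicate 1, and called at -2.55 (edgeR adjusted p = 0.0228) without E14.5 replicate 1.

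*Angpt2* (Entrez Gene 11601, chromosome 8, 18690263 to 18741562) was low throughout and lowest at E16.5. Its FPKM was 0.84, 1.46 and 1.12 at E10.5, 1.47, 1.74 and 1.42 at E14.5, then 0.48, 0.56 and 0.75 at E16.5. The E16.5 pools were below all others. The means were 1.14 ± 0.310, 1.54 ± 0.172 and 0.597 ± 0.139 (SD, n = 3 each). It fell from E14.5 to E16.5 by 1.19 on the log2 scale (SE 0.27, edgeR adjusted p = 0.00717), a call that limma on log2(FPKM + 1) did not make, at -0.67. Without E14.5 replicate 1 it was -1.23. At E16.5 against E10.5 the change was -0.77 (SE 0.28, edgeR adjusted p = 0.0276) and at E14.5 against E10.5 it was 0.41 (SE 0.25, edgeR adjusted p = 0.185), or 0.46 without E14.5 replicate 1. *Angpt2* lies inside the outer limits of the gene *Mcph1*, which was at 6.79 ± 0.247, 4.61 ± 0.607 and 2.51 ± 0.221 FPKM (SD, n = 3 each). The estimated counts of *Angpt2* were not whole in 8 of the 9 samples, so some of its reads may have been shared with other features. Whether *Mcph1* is among these was not tested. The FPKM ratio of *Angpt1* to *Angpt2* was 2.75 to 4.74 in the E10.5 pools and at most 0.443 in any corneal pool. The more abundant angiopoietin was thus *Angpt1* in every pNC pool and *Angpt2* in every corneal pool.

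*Vash1* (Entrez Gene 238328, chromosome 12, 86678700 to 86695688) fell between E14.5 and E16.5. Its FPKM was 17.9, 18.8 and 15.4 at E10.5, 8.61, 13.7 and 16.6 at E14.5, then 3.47, 4.54 and 5.43 at E16.5. The first stages overlapped through E14.5 replicate 3, and the E16.5 pools were below all others. The means were 17.4 ± 1.76, 13.0 ± 4.05 and 4.48 ± 0.981 (SD, n = 3 each). The log2 fold change at E16.5 was -1.80 against E10.5 (SE 0.23, edgeR adjusted p = 4.3e-05) and -1.37 against E14.5 (SE 0.23, edgeR adjusted p = 0.00178), the latter -1.60 without E14.5 replicate 1. That at E14.5 against E10.5 was -0.43 (SE 0.22, edgeR adjusted p = 0.119), or -0.20 without E14.5 replicate 1. Its estimated counts were not whole in any of the 9 samples, so some of its reads may have been shared with other features. The inhibitors *Serpinf1* and *Vash1* thus moved in opposite directions between both earlier stages and E16.5.

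**Figure D4:**
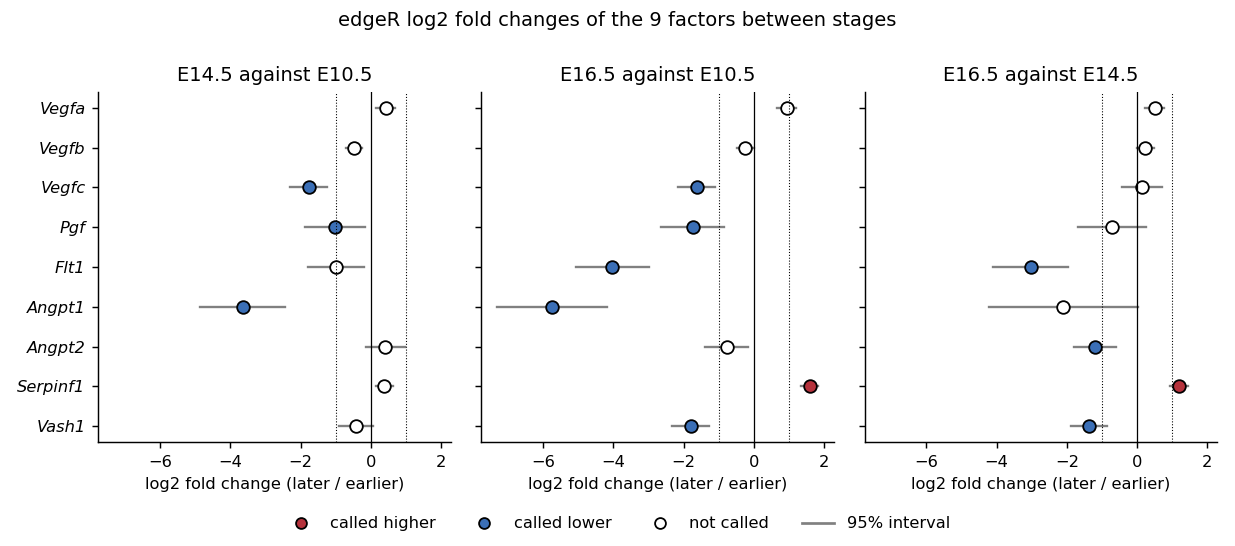
Log2 fold changes of the 9 genes from edgeR (later over earlier stage) with 95% intervals, for the 3 pairs of stages. Filled points were called, dotted lines mark 2-fold, and *Serpinf1*, at 1.58 and 1.20 in the comparisons with E16.5, is the gene called higher.

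The order of levels was *Serpinf1*, *Vegfa*, *Vegfb*, *Vash1* and *Vegfc* at the top at each stage. At E10.5 *Vegfa* and *Vegfb* overlapped, as did *Flt1* with *Angpt1* and *Angpt1* with *Pgf*. At E16.5 *Vash1* and *Vegfc* overlapped, and *Flt1* and *Angpt1* were the lowest of all and overlapped too. The genes most like a member in log2(FPKM + 1) were sought among 10942 genes, by Pearson correlation over the 9 samples, which fall into stages and so make high values common. For *Vegfa* they were *Zhx1* (r = 0.993), *Pigc* (0.991) and *Ankrd28* (0.988). For *Serpinf1* they were *Fam3a* (0.985), *Plod1*, which encodes a collagen lysyl hydroxylase (0.984), and *C430049B03Rik* (0.984). For *Vash1* they were *Kif21b* (0.996), *Ptbp1* (0.995) and *Iqgap3* (0.995), and for *Vegfc* *Dhx32* (0.984), *Slc43a1* (0.982) and *Eml1* (0.981). *Vegfb* had few close matches, led by *Ptges2* (0.951), *Opn3* (0.949) and *Epha4* (0.938).

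Of 11 receptors and partners of the 9 products, 10 were tested, and at E16.5 against E10.5 1 was called higher and 3 lower, where 19.4% and 15.4% of all genes were so called. *Plxdc2*, which encodes a receptor for PEDF, rose with its ligand from 5.21 ± 0.741 to 23.3 ± 8.15 and 45.6 ± 1.13 FPKM (SD, n = 3 each), a log2 fold change of 3.28 (SE 0.22, edgeR adjusted p = 4.4e-07). Genes of the other PEDF-binding products tested changed by less than 2-fold and were not called. *Pnpla2* was at 3.45 ± 0.980 and 6.12 ± 0.540 FPKM at E10.5 and E16.5 (SD, n = 3 each), at 0.98 (SE 0.20, edgeR adjusted p = 0.00136). *Rpsa* was at 978 ± 32.9 and 586 ± 24.2 FPKM at these stages (SD, n = 3 each), at -0.59 (SE 0.10, edgeR adjusted p = 0.00025). The angiopoietin receptor gene *Tek* fell from 9.16 ± 1.83 to 0.17 ± 0.1 FPKM (SD, n = 3 each), by 5.59 on the log2 scale (SE 0.44, edgeR adjusted p = 1.3e-06), and its relative *Tie1* by 4.05 (SE 0.48, edgeR adjusted p = 2.3e-05). *Flt4*, the receptor gene for VEGF-C, fell from 7.74 ± 3.08 to 0.127 ± 0.0379 FPKM (SD, n = 3 each), by 5.75 (SE 0.50, edgeR adjusted p = 2.5e-06). The VEGF co-receptor gene *Nrp1* was called higher at E14.5 against E10.5, at 1.05 (SE 0.21, edgeR adjusted p = 0.00175), and *Nrp2* was not called, at -0.97 at E16.5 against E10.5. *Svbp*, whose product binds vasohibin, was at 46.8 ± 4.38, 61.5 ± 11.6 and 53.3 ± 1.75 FPKM (SD, n = 3 each) while *Vash1* fell.

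Of 16 other anti-angiogenic factors, 14 were tested, of which 7 were called higher and 3 lower at E16.5 against E10.5, with a median log2 fold change of 1.11. Of all genes, 19.4% were called higher and 15.4% lower, and 3 of 14 is near the latter share. The thrombospondin gene *Thbs2* rose from 2.28 ± 0.395 to 38.7 ± 12.6 and 141 ± 17.7 FPKM (SD, n = 3 each), by 6.10 on the log2 scale (SE 0.27, edgeR adjusted p = 4.9e-08). *Tnmd*, which encodes tenomodulin, rose from at most 0.17 FPKM in any E10.5 pool to 32.9 ± 6.57 (SD, n = 3), and its relative *Cnmd* rose by 4.38 (SE 0.34, edgeR adjusted p = 1.1e-06). *Col15a1*, a basement membrane collagen gene, fell by 4.30 (SE 0.46, edgeR adjusted p = 1.1e-05). Of 15 other angiogenic factors, 13 were tested, and 2 were called higher and 4 lower, with a median of -0.37, and 2 of 13 is near the share of all genes called higher. The chemokine gene *Cxcl12* fell from 71.7 ± 5.47 to 6.23 ± 1.48 FPKM (SD, n = 3 each), and *Ang*, which encodes angiogenin, rose from 1.62 ± 0.290 to 6.24 ± 0.560 (SD, n = 3 each). In the authors' table of angiogenesis genes, *Ang* is instead lower at E16.5 than at E10.5, and why was not tested. These lists were put together with earlier results of the data known.

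Because *Vegfa* is a textbook target of the hypoxia-inducible factors, 15 hypoxia regulators and targets were counted beside it. At E14.5 against E10.5, 0 were called by edgeR, DESeq2 or limma, where edgeR called 13.6% of all genes higher and 7.97% lower. At an unadjusted p under 0.05, edgeR gave 6 of the 15 higher and 3 lower, a level at which shares of all genes are not given here. By E16.5, 6 were called higher than in the pNC and 0 lower, where 19.4% and 15.4% of all genes were so called. At an unadjusted p under 0.05 edgeR gave 9 higher and 3 lower. At the adjusted p under 0.05 with no fold minimum, 35.2% of all genes were already higher and 34.7% lower. By limma, 4 were called higher and 1 lower. Shares of all genes at the unadjusted p and by limma are not given here for this comparison. *Ndrg1* rose by 4.11 (SE 0.45, edgeR adjusted p = 1.2e-05), the prolyl hydroxylase gene *Egln3* by 3.71 (SE 0.37, edgeR adjusted p = 6.1e-06), *Hif3a* by 3.34 (SE 0.19, edgeR adjusted p = 1.7e-07) and the glucose transporter gene *Slc2a1* by 1.90 (SE 0.23, edgeR adjusted p = 2.9e-05). The glycolytic enzyme genes *Ldha* and *Pgk1* went the other way without reaching 2-fold, at -0.54 (SE 0.16, edgeR adjusted p = 0.00968) and -0.96 (SE 0.11, edgeR adjusted p = 1.5e-05), and *Hif1a* was at 40.3 ± 1.43 FPKM at E10.5 and 41.2 ± 2.85 at E16.5 (SD, n = 3 each). The authors' table of angiogenesis genes differs, with both *Hif3a* and *Hif1a* lower at E16.5 than at E10.5. The reason for this difference was not tested. The median log2 fold change of the 15 genes was 0.44, and that of *Vegfa* was 0.93. The authors' in situ hybridization placed *Ndrg1* in the corneal epithelium at E16.5. Epithelial marker genes rose over the same stages, as given above, and the part of epithelial content in these changes was not tested.

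**Figure D5:**
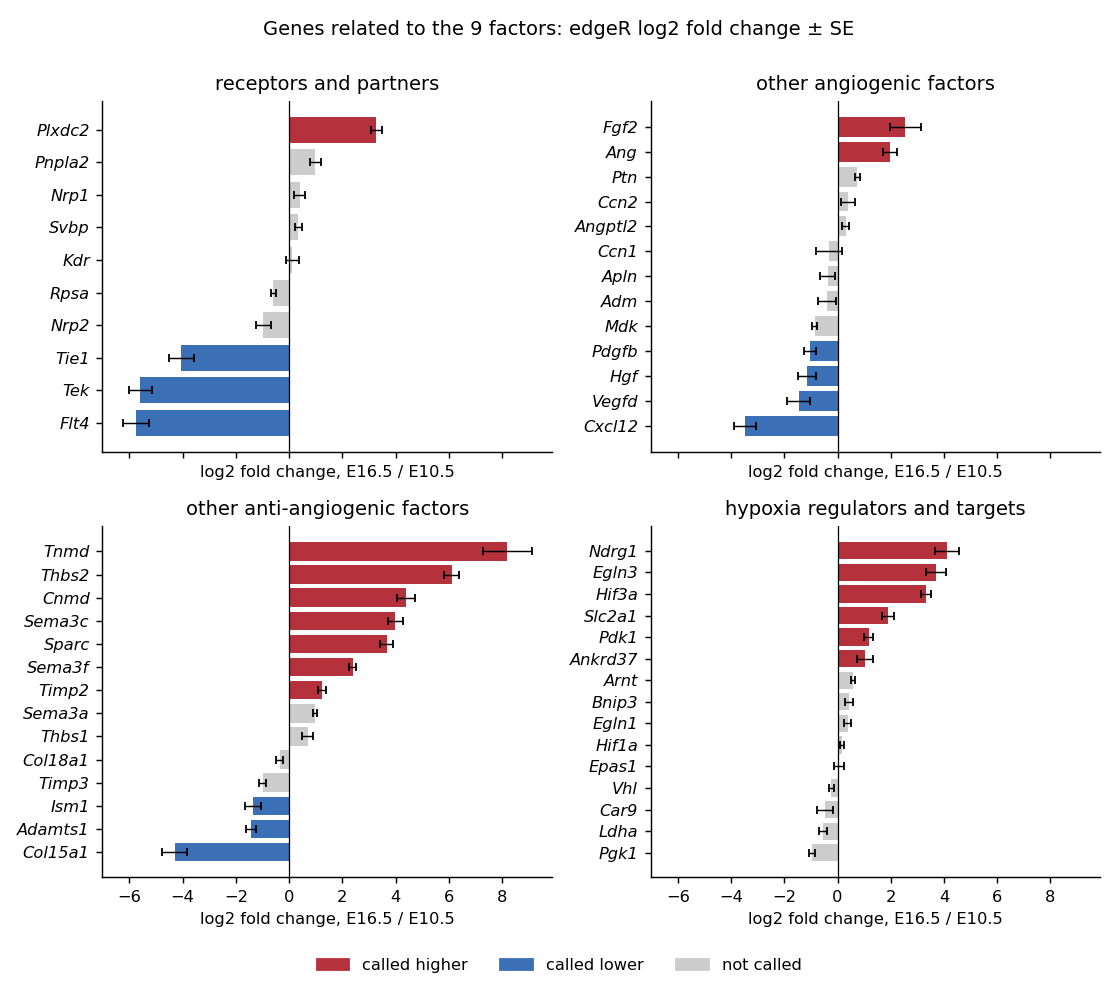
Log2 fold change ± SE at E16.5 against E10.5 from edgeR for the tested genes of 4 lists related to the 9 factors, with called genes in colour. *Plxdc2*, *Thbs2*, *Tnmd*, *Ndrg1* and *Egln3* rise, and *Flt4*, *Tek*, *Tie1*, *Cxcl12* and *Col15a1* fall.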

How the data were processed

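RNA-Seq was performed on 9 samples, 3 for each stage, with stage and replicate number as the labels give them. As the methods state, the authors filtered reads, mapped them with Bowtie 2 and HISAT against GRCm38 and quantified genes with RSEM (versions not given in the sources used here). The deposited expected counts are estimates that the authors did not normalize. The deposited FPKM values were scaled by the authors to transcript length and mapped fragments. The lowest listed FPKM is 0.01, and a gene not listed was taken as 0. Of 19369 Entrez identifiers, 19312 matched a RefSeq symbol.

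Expected counts were rounded and tested with edgeR 4.0.16 in R 4.3.3 (filterByExpr by stage, TMM, 1 quasi-likelihood model of stage over 9 samples, Benjamini-Hochberg adjustment over 14771 genes), and genes were called at an adjusted p under 0.05 with a change of at least 2-fold. The fit was tested on simulated data first. SE values come from the F statistic and the fitted change. Alternatives were library totals, DESeq2 1.42.0, no count filter, limma 3.58.1 on log2(FPKM + 1) or + 0.1, the replicate block, only the stages compared, each pool left out, no fold minimum, and NOISeq's criterion (probability of at least 0.8) recomputed in Python 3.11.15. Depth of 8745161 to 9069023 counts makes counting error small except for *Angpt1*, *Angpt2*, *Pgf*, *Flt1* at E16.5 and *Vegfc* in the cornea.

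The members, lists and motifs were chosen with earlier results of these data known. All 9 members were named, with receptors reaching 5 FPKM, up to 4 genes of each other list with the largest change called at E16.5 against E10.5 (mean of at least 5 FPKM at some stage, stages not overlapping), and the 3 most like each member of at least 5 FPKM. *Pecam1*, *Cdh5*, *Egfl7*, *Rpe65*, *Tyr*, *Hif1a*, *Ldha*, *Pgk1*, *Eng* and *Mcph1* were named after their values were seen.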

Additional observations from a re-analysis of the deposited data

How the results depend on the processing

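Of 243 member comparisons with 1 pool left out, 231 kept their direction and call, as did 225 of 242 under other settings. Without a fold minimum, the members called higher were 2, 2 and 2 and those called lower at E14.5 against E10.5 were 5, and all genes called were 8328, 10316 and 5164, against 3191, 5144 and 1732 (E14.5 against E10.5, E16.5 against E10.5, E16.5 against E14.5). With limma on log2(FPKM + 1), 2016 and 1011 genes were called at E14.5 against E10.5 and E16.5 against E14.5 (2045 and 1010 without a filter), and with NOISeq's criterion 1476 and 782, when 1 member (*Vash1*) was lower at E16.5 against E14.5. Leaving out 1 pool gave 2985 to 3450, 5115 to 5321 and 1322 to 2363 genes. It gave 2 to 4 members lower at E14.5 against E10.5, 1 to 2 higher at E16.5 against E10.5 (2 without E10.5 replicate 3, *Vegfa* added) and 3 to 4 lower at E16.5 against E14.5. FPKM divided by the TMM factor was 55.8 for *Vegfa*, 23.4 for *Vegfb* and 203 for *Serpinf1* at E16.5, and 3.86 for *Angpt1* at E10.5, since the factors were 0.918 to 0.940 at E16.5. *Vegfc* between the corneal stages reversed to -0.02 with library totals, -0.04 with limma (also without a filter), -0.06 with a pseudocount of 0.1, -0.02 as a NOISeq ratio and -0.01 to 0.38 with 1 pool left out. The cause was not tested.

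Samples with the same replicate number were not alike, since deviations from stage means correlated at -0.0341 on average for 9 pairs with the same number and 0.0178 for 18 others. With the replicate block 3167, 5140 and 1722 genes were called, *Pgf* at E14.5 against E10.5 was -1.05 (edgeR adjusted p = 0.0609) and not called, and *Flt1* was -1.03 (edgeR adjusted p = 0.0427) and called. With library totals the median log2 fold change of all genes was -0.15 at E16.5 against E10.5 and -0.19 at E16.5 against E14.5, against 0.00 and -0.02 with TMM. *Angpt1* has no value for E16.5 against E14.5 with only those stages fitted, where it failed the count filter. *Flt1* and *Angpt2* at E16.5 against E14.5 and *Pgf* at E16.5 against E10.5 did not pass NOISeq's criterion.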
